A study of Mus musculus with 3 samples.

Results

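The 564 regions described here are called peaks of a glucocorticoid receptor (GR) chromatin immunoprecipitation that lay on short tandem repeats other than the guanine-adenine (GA) and cytosine-adenine (CA) dinucleotides and far from genes' start sites. The rule that chose them, out of 3087 listed peaks, used only sequence and position. They were still chosen with earlier results of these data known. Perfect tandem tracts (a unit of 1 to 6 bp, repeated at least 3 times over at least 8 bp) had to cover at least 50% of the peak. The unit that covered most bases had to be neither dinucleotide, and the summit had to lie over 5000 bp from every start of a protein-coding transcript. Of all the listed peaks, 2773 were distal in this sense, and 1325 of those were on GA repeats, 516 on CA repeats and 368 outside simple tandem repeats.

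The list came from skeletal muscle nuclei of mice labelled with the genotype GR(i)skm-/-, titled GR KO, of strain C57/Bl6J and aged 10 to 12 weeks, with an antibody to the C-terminal part of the receptor. The labels do not say how the deletion was made or which cells of the muscle keep the receptor, and the receptor's own level could not be checked from a peak list. A second list holds 399 regions enriched for H3K27me3, the histone mark placed by Polycomb complexes, in skeletal muscle of WT mice of the same strain and age. An input library of the knockout muscle was not analysed here. Each group had 1 library, so no value below has a replicate check, no test between groups was possible, and peaks within the list are not replicates. Read totals are unknown.

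The glucocorticoid receptor is a hormone-activated transcription factor that binds, as a dimer, pairs of short sites facing each other, and in muscle it drives genes of protein breakdown and of the circadian and stress response. Short tandem repeats, or microsatellites, are runs of a unit of a few bases that lengthen and shorten by slippage of DNA polymerase. One of the units here, the telomere hexamer, also forms the ends of vertebrate chromosomes, where telomerase adds it, and shorter runs of it lie inside chromosome arms as interstitial telomeric repeats. A unit is written below in its alphabetically first form over both strands and all starting points. ACAG thus stands also for CTGT, and AACCCT for the telomere hexamer TTAGGG.

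The sequences of strong members of 12 common units show what the peaks consist of. All are on the forward strand of mm10 with the bases of the dominant unit's tracts in capitals and all other bases in lower case. For ACTG the second strongest member is shown, because the strongest is 649 bp wide.
Nearest to Nova1, unit ACT, chr12:46858267-46858350: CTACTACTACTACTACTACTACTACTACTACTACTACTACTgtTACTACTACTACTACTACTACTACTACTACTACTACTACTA
Plxna4 intron, unit ACTG, chr6:32396911-32396991: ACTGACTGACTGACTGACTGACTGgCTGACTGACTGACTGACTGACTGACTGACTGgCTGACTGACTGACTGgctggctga
Nearest to Ttll7, unit ACAG, chr3:147169897-147169984: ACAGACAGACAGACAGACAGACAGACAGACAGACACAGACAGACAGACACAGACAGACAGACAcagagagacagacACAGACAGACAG
Nearest to Esx1, unit ACAG, chrX:137307175-137307261: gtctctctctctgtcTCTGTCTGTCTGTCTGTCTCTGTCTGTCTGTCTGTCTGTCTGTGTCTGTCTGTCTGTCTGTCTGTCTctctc
Nearest to Gm9008, unit ACTC, chr6:76361790-76361868: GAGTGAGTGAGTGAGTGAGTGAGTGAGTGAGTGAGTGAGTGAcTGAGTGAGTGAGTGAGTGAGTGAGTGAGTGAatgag
Aff3 intron, unit ATC, chr1:38653625-38653733: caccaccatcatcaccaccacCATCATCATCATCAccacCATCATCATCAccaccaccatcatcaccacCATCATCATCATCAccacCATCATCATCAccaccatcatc
Nearest to Epha7, unit ACC, chr4:29095905-29096070: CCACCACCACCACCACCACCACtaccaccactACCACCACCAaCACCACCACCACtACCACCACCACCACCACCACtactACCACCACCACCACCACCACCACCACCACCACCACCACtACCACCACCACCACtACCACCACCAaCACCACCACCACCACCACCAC
Nearest to Rps24, unit ACGC, chr14:24927916-24927993: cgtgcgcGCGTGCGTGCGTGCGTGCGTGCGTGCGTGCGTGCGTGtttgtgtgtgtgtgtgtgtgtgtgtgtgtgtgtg
Nearest to Samd9l, unit AGAGG, chr6:3439061-3439135: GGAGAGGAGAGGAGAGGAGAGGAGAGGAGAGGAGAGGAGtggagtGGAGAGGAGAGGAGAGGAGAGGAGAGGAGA
Nearest to Nfkb1, unit ACACAG, chr3:135577345-135577637: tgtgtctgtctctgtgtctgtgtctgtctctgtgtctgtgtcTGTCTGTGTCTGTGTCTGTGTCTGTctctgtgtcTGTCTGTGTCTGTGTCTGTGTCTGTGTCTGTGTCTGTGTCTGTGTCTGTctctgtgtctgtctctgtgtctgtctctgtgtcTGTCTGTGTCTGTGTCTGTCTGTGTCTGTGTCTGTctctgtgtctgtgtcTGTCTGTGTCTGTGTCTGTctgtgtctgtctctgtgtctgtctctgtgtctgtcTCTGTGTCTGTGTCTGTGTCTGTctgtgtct
Nearest to Gm12666, unit ACACC, chr4:92230563-92230654: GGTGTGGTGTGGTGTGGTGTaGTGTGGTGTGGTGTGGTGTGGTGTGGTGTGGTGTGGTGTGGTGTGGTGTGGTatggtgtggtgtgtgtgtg
Nbas intron, unit ACACGC, chr12:13429236-13429329: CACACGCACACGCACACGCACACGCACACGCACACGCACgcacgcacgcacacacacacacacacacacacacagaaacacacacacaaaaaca
Nearest to Xpnpep1, unit ACAGAG, chr19:52837214-52837291: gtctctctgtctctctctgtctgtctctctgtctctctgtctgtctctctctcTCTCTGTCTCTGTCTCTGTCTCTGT

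Capitals fill almost the whole of the ACT, ACTC and AGAGG peaks, which hold a few short interruptions. In the ACGC and ACACGC examples part of the lower-case sequence is a run of the CA dinucleotide. In the ACAGAG example the capitals take 32.1% of the bases. Its lower-case part mixes CT runs with CTGT copies too few for a tract. The Aff3 example alternates between CAT and CAC triplets.

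Members were spread over 57 different units, and 13 of these had at least 10 members each and together held 462 members (81.9%). ACAG was the commonest unit with 136 members (24.1%). It was followed by ACC with 55, ACT with 49, ACAGAG with 40 and the telomere hexamer AACCCT with 34. Next came ACTC with 29, ATC with 28, AGAGG with 24 and ACGC with 21. ACACAG, like ACTG and ACACC, had 12 members, and ACACGC had 10. The remaining 44 units shared 102 members, and 22 of them had a single one. By length of the unit, 222 members (39.4%) had a unit of 4 bp, 147 (26.1%) one of 3 bp, 123 (21.8%) one of 6 bp, 70 (12.4%) one of 5 bp and 2 were runs of C. None had a unit of only A and T.

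The authors' fold enrichment over the local background had medians between 15.02 and 20.3 in the 13 units with at least 10 members. Over all members it had a median of 16.9 with quartiles of 14.1 and 22.5 and a range of 12.1 to 68.5, against medians of 16.1 for distal GA peaks, 15.9 for distal CA peaks and 16.4 for the whole list. The deposited fold adds 1 read to peak and background, and since the background was mostly near its lowest value of 0.0651 reads it follows the number of reads at the summit. That number, worked back from the fold and the p-value, was 12 to 80 with a median of 17. In 199 members (35.3%) it was 12 to 15 reads, against 1209 of all 3087 listed peaks (39.2%).

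**Figure D1:**
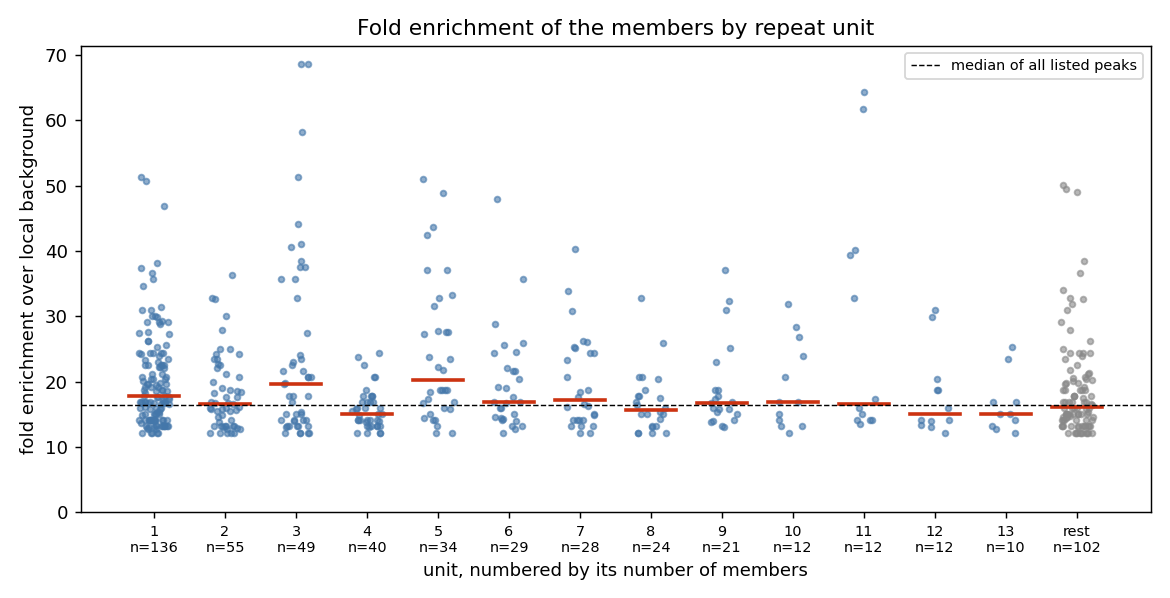
Fold enrichment of each member (points) by repeat unit, with units numbered by their number of members (1 ACAG, 2 ACC, 3 ACT, 4 ACAGAG, 5 AACCCT, 6 ACTC, 7 ATC, 8 AGAGG, 9 ACGC, 10 ACACAG, 11 ACTG, 12 ACACC, 13 ACACGC), red bars at the medians and a dashed line at the median of all 3087 peaks. The lowest member of each numbered unit is at 12.1-fold to 13.5-fold, their medians lie between 15.02 and 20.3, and the points above 60 belong to units 3 and 11.

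The ranges of the 13 units all overlapped, and the plot of fold enrichment by unit shows that they differ mainly at the top. The telomere hexamer had the highest median of the 13 units, 20.3-fold with quartiles of 16.1 and 30.6, and 25 of its 34 members were above the list's median. ACT followed with a median of 19.7 and quartiles of 14.1 and 32.8. ACAG had a median of 17.7, and 86 of its 136 members were above the list's median. The lowest medians were those of ACAGAG with 15.02 and quartiles of 13.6 and 17.1, ACACGC with 15.03, ACACC with 15.02 and AGAGG with 15.7. No ACAGAG member exceeded 24.4-fold, and 14 of 40 were above the list's median. Peaks of 1 library are not replicates, so these differences were not tested.

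The 10 members of highest fold enrichment included 4 with the unit ACT and 2 with ACTG. The ACT members were at chr12:46858267-46858350, 39.4 kb from the start of Nova1 (68.5-fold, 72 reads), in an intron of Rasgrf2 at chr13:92043927-92044038 (68.5-fold, 72 reads), at chr7:77913708-77913899 nearest to Ntrk3 (58.2-fold, 61 reads) and in an intron of Fgfr2 at chr7:130284341-130284550 (51.4-fold, 55 reads). Nova1 encodes a neuronal splicing factor, Ntrk3 a neurotrophin receptor and Fgfr2 a fibroblast growth factor receptor. The ACTG members were at chr14:103464230-103464878, 48.5 kb from Scel (64.2-fold, 80 reads), and in an intron of Plxna4, a semaphorin co-receptor gene, at chr6:32396911-32396991 (61.6-fold, 66 reads). The other ACTG members reached at most 40.1-fold, and the unit's median was 16.6-fold with quartiles of 14.1 and 39.6.

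The remaining members among these 10 lay outside the ACT and ACTG units. ACAG gave peaks at chr3:147169897-147169984, 273.3 kb from Ttll7 (51.3-fold, 57 reads), and at chrX:137307175-137307261, 185.1 kb from Esx1 (50.7-fold, 53 reads). The telomere hexamer gave one at chr2:28184536-28184650, 8.384 kb from Olfm1 (51.0-fold, 60 reads), and AGCC one in an intron of Bach2, which encodes a lymphocyte repressor, at chr4:32518933-32519078 (50.1-fold, 53 reads). Closest start sites 8.384 to 664 kb away are given as places only, since no expression data were used.

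Among the 13 units with at least 10 members, the strongest members of those not yet named stood between 24.4-fold and 47.9-fold. The ACTC peak at chr6:76361790-76361868, 136 kb from Gm9008, reached 47.9-fold with 50 reads. The ATC peak in an intron of Aff3 at chr1:38653625-38653733 reached 40.4-fold with 43 reads. The ACGC peak at chr14:24927916-24927993, 437.2 kb from Rps24, reached 37.2-fold with 41 reads. For ACC the strongest was at chr4:29095905-29096070, 282.7 kb from Epha7, with 36.3-fold and 40 reads. AGAGG reached 32.9-fold at chr6:3439061-3439135, 39.5 kb from Samd9l. ACACAG reached 31.8-fold at chr3:135577345-135577637, 30.7 kb from Nfkb1, and ACACC 30.98-fold at chr4:92230563-92230654, 38.8 kb from Gm12666. ACACGC reached 25.3-fold in an intron of Nbas at chr12:13429236-13429329. ACAGAG reached 24.4-fold at chr19:52837214-52837291, 194.9 kb from Xpnpep1.

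The next strongest members of these units were as follows. ACAG was followed, after the 2 above, by a peak at chr12:8180378-8180446, 27.7 kb from Ldah (46.9-fold). ACTG was followed by one in an intron of Limch1 (40.1-fold). ACTC was followed by peaks 35.04 kb from 3830403N18Rik on chromosome X (35.7-fold) and 36.9 kb from Ptpn1, a tyrosine phosphatase gene (28.8-fold). ATC was followed by peaks in an intron of Sgcz, which encodes zeta-sarcoglycan (33.8-fold), and 19.1 kb from Zfp423 (30.8-fold). ACC was followed by peaks nearest to Nlrp1b (32.9-fold) and Gpr63 (32.6-fold), and ACGC by peaks in an intron of Sash1 (32.3-fold) and nearest to Vrk1 (30.98-fold). For the units of lower fold the runners-up lay at 16.9-fold to 29.9-fold: nearest to Castor2 and in Nnt for ACACAG, near Fam181b and in Kif21b for ACACC, in Wdfy2 and nearest to Vmn1r78 for AGAGG, nearest to Cbln4 and Fgf10 for ACAGAG, and nearest to Speer2 and Dpp6 for ACACGC.

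The members were as wide as the rest of the list, with a median of 67.5 bp (49 to 649 bp, 7 of them over 300 bp) against 68 bp over all listed peaks. Their repeat cover was set by the choice of members and is given as a description. Tracts of any unit covered a median of 84.7% of the peak and all of its bases in 50 members. The dominant unit alone accounted for a mean of 68.9% of the bases, and the summit lay in a tract of it in 425 members (75.4%). The longest uninterrupted tract of the dominant unit had a median of 29 bp for ACAG, 39 bp for AACCCT, 44 bp for ACTG and 20 bp for ACC as well as for ATC. Soft-masked sequence made up at least 50% of the bases in 563 members (99.8%), close to the 3046 of all 3087 listed peaks (98.7%).

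**Figure D2:**
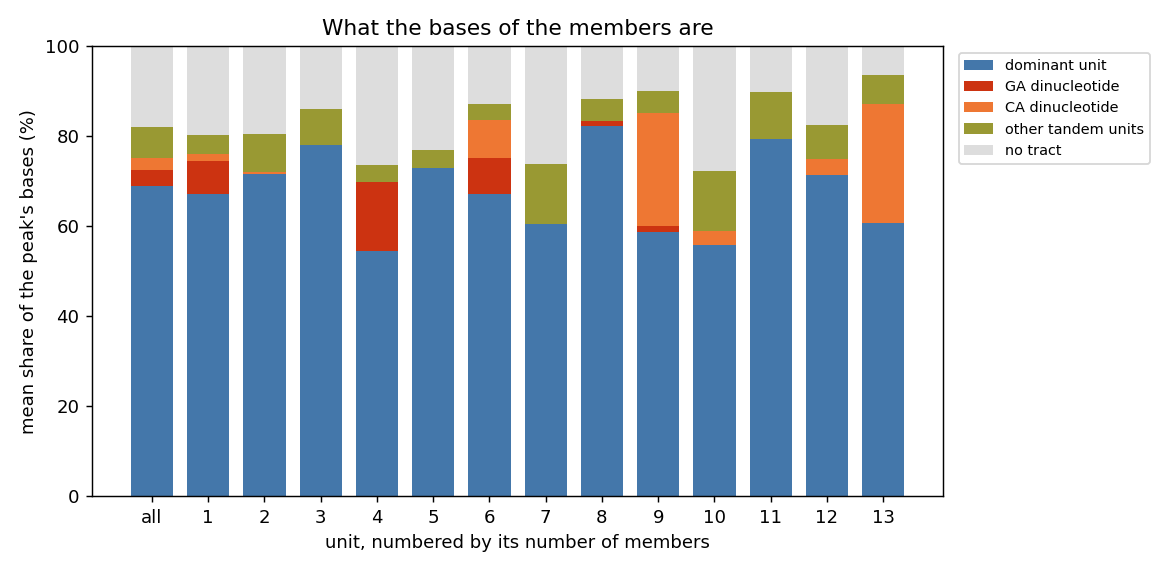
Mean share of the peak's bases (percent, y axis) taken by the dominant unit, GA, CA, other tandem units and no tract, for all 564 members and for the 13 commonest units by number. Unit 9, which is ACGC, and unit 13, which is ACACGC, carry the most CA, at 25.1% and 26.4%, and unit 4 (ACAGAG) the most GA, at 15.2%.

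A second unit was present in 294 of the 564 members. GA was the second unit in 86 and CA in 53, and 414 members (73.4%) held neither a GA nor a CA tract. Which second unit was present went with the dominant one, as the plot of the bases by unit shows. A GA tract lay in 52 of the 136 ACAG members and in 27 of the 40 ACAGAG members, where GA made up a mean of 15.2% of the bases. A CA tract lay in 18 of the 21 ACGC members and 9 of the 10 ACACGC members, with mean shares of the bases of 25.1% and 26.4%. These units differ from the dinucleotide beside them by 1 base per repeat, so such peaks lie next to the GA and CA classes.

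The 3 bp units were mixed with each other instead. ACC was the second unit in 16 of the 28 ATC members, and ATC in 15 of the 55 ACC members. AGC was the second unit in 10 of the 49 ACT members, and no ACT member held a GA or CA tract. The telomere hexamer stood alone in 28 of its 34 members, and in 4 others its variant AACCCC was second.

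Fold enrichment was most closely related to the width of the peak among the measures compared. Across the 564 members Spearman's rho of fold enrichment was 0.40 with width, 0.04 with the longest tract, -0.01 with the share of bases in the dominant unit, -0.06 with the G and C content and -0.08 with the number of genome positions of the peak's 31-base words. These values share 1 library and its depth, the called width itself grows with the signal, and they are given as a description.

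To see which units carried peaks more often than their abundance, all tracts of at least 20 bp on the reference chromosomes were counted. Of 631625 tracts of units other than GA and CA, 1564 overlapped a listed peak of any class (0.248%). The same share was 1.28% for GA tracts and 0.365% for CA tracts. Intervals on such shares are exact Clopper-Pearson intervals at 95% and cover counting error only. Tracts close together share peaks, so they are not independent.

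**Figure D3:**
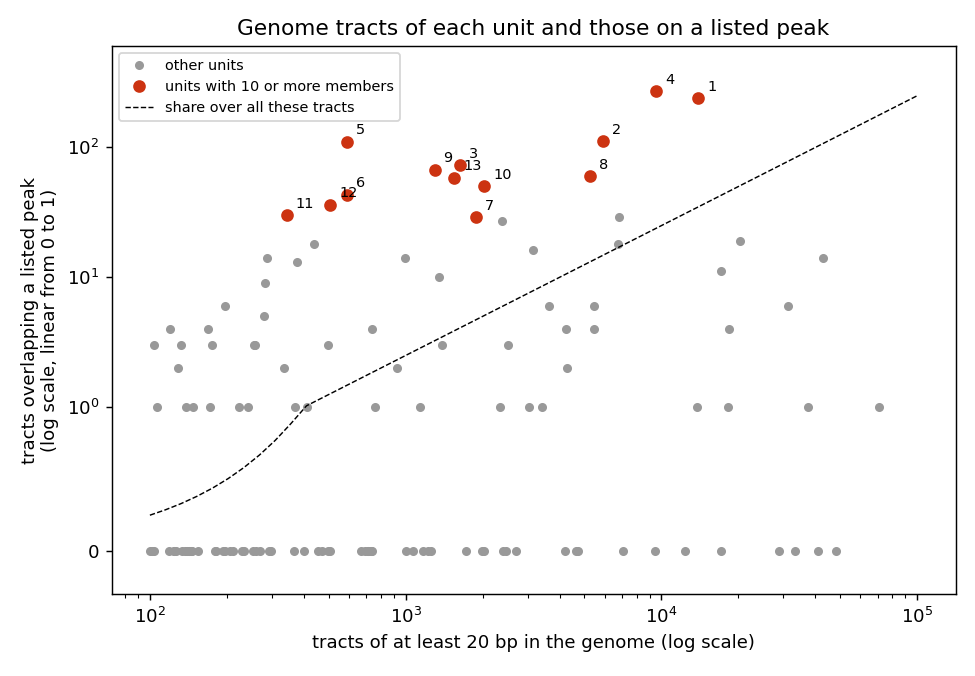
Tracts of at least 20 bp of each unit with at least 100 of them in the genome (x axis, log scale) against those that overlap a listed peak (y axis, log scale, linear from 0 to 1), GA and CA left out. The 13 numbered units (red), picked for at least 10 members from this same list, all lie above the dashed line. That line marks the share over all these tracts, 0.248%, and the choice of units itself favours a place above it. Several units with over 10000 tracts lie at 0 or 1.

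The telomere hexamer had the highest share of the 13 units with at least 10 members. Of its 589 tracts 110 carried a listed peak (18.7%, interval 15.6 to 22.1), and 96 of these tracts were on a member. When hexamer tracts within 10 bp of each other were counted once the share was 14.3%, from 70 of 489. Among these units ACTG followed with 30 of 343 tracts (8.75%, interval 5.98 to 12.3), ACTC with 43 of 592 (7.26%), ACACC with 36 of 506 (7.11%), ACGC with 67 of 1297 (5.17%) and ACT with 73 of 1629 (4.48%). The intervals of ACTG, ACTC and ACACC overlapped each other, and that of the hexamer overlapped none of the other 12. With tracts of at least 30 bp, however, the hexamer's interval (21%, 16.6 to 25.9) overlapped that of ACTG (15%, 9.77 to 21.7). At 20 bp or more, some units with fewer members also had high shares on few tracts, such as ACTGCT with 11 of 86 (12.8%, interval 6.56 to 21.7) and ACACT with 9 of 87 (10.3%).

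The units with most members were not those with the highest share. ACAG had 13917 tracts and 238 with a peak (1.71%, interval 1.501 to 1.94). ACC had 111 of 5903 (1.88%), ATC 29 of 1883 (1.54%) and AGAGG 60 of 5249 (1.1%). For ACAGAG the share was 2.80% (268 of 9561), but 70 of those tracts were on members and the others on listed peaks of other classes. ACGC had likewise 24 of its 67 tracts on members. For ACAG 160 of 238 were on members.

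Several of the commonest tandem units of the mouse genome carried almost no peak. AAAC had 0 of 48370 tracts, which allows a share of up to 0.0062%, and AAGG had 0 of 33447 (up to 0.00897%). AT had 0 of 40851 (up to 0.00734%) and AAAT 0 of 28957 (up to 0.0104%). Runs of A had 1 of 71219, AAAG 14 of 42920 (0.0326%), AGAT 6 of 31125 (0.0193%), AGG 4 of 18346 (0.0218%) and ACAT 1 of 13750 (0.00727%). Of the 56 units other than GA and CA with at least 1000 tracts, 22 had none on a listed peak. The list had been filtered to a -log10 q of at least 20.01, so a tract without a listed peak may have carried a weaker one.

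Grouped by base makeup, a grouping chosen after these values were seen, tracts whose unit had no G or C carried 1 peak-bearing tract in 165268. With G or C at over 0 and under 40% of the unit the share was 0.0677% (180 of 266014, interval 0.0581 to 0.0783). It was 0.850% at 40% to under 60% (865 of 101735, interval 0.795 to 0.909) and 0.525% at 60% or more (518 of 98608, interval 0.481 to 0.572). The members fell into these classes as 0, 94, 301 and 169.

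Units with a CA or TG step, a grouping also not set in advance, carried a peak at 0.514% of tracts (1198 of 232868). Those without one stood at 0.0918% (366 of 398757). Within units of 40% to under 60% G or C the shares were 1.49% with the step (739 of 49461, interval 1.39 to 1.60) and 0.241% without it (126 of 52274, interval 0.201 to 0.287). The dinucleotides left out of these counts, which also fall in this class, had the opposite order: CA, with the step, stood at 0.365% and GA, without it, at 1.28%. ACT, AACCCT and AGAGG have no such step and still stood at 4.48%, 18.7% and 1.1%. Within the 40% to under 60% class few units made up the counts. AACCCT gave 110 of the 126 tracts without the step, where AAGG had 0 of 33447. ACAG gave 238 and ACAGAG 268 of the 739 with it. Purine-only units other than GA had 144 of 189111 tracts on a peak (0.0761%), and units of only A and T, of 2 bp or more, had 0 of 94049 (up to 0.00319%).

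**Figure D4:**
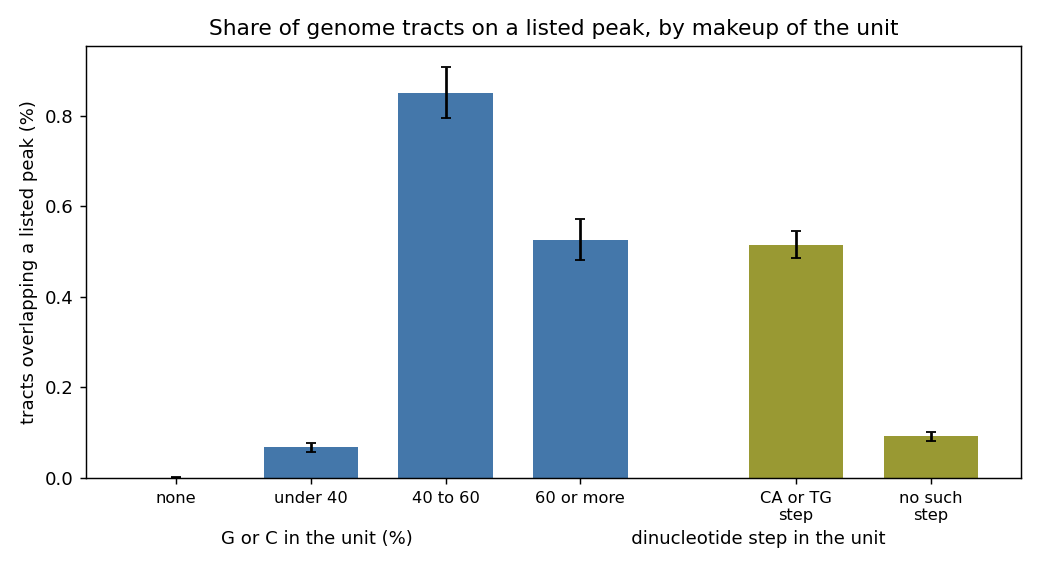
Share of genome tracts of at least 20 bp that overlap a listed peak (percent, y axis), by the share of G or C in the unit and by the presence of a CA or TG step, with GA and CA left out; error bars are exact 95% intervals for counting error. The bars stand at 0.000605%, 0.0677%, 0.850% and 0.525% from no G or C to 60% or more, and at 0.514% with the step against 0.0918% without it.

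The share also varied with the length of the tract, in different ways between units. For ACTG the share was 3.68% at 20 to 29 bp, 13.3% at 30 to 39 bp and 16.4% at 40 to 59 bp. For ACTC it was 3.83%, 9.22% and 10.7%, and for ACAG 1.46%, 1.75% and 3.44% (39 of 1134, interval 2.46 to 4.67). ACAGAG went from 3.08% at 20 to 29 bp to 1.86% at 40 to 59 bp, and ACC from 2.13% to 1.49%, and for each of these units the intervals of the compared length classes overlapped, as did those of ACTC between 20 to 29 bp and 40 to 59 bp. ACC tracts of 60 bp or more had 0 of 94, which allows up to 3.19%. Telomere hexamer tracts had 16.1%, 34.8%, 21.6% and 12.8% from the shortest to the longest class, the last being 16 of 125.

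TTAGGG was searched on both strands in the 100 bp around each summit. All 34 telomere-type members held it, as their choice by this unit makes likely, in 7 to 15 copies, and 38 of the 564 members did, against 51 of all 3087 listed peaks (1.65%). Of the listed peaks with it, 10 were distal peaks outside tandem repeats by the 50% rule.

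Telomere-type members lay on 15 chromosomes and mostly far inside them. The distance to the nearer sequenced chromosome end had a median of 21592 kb and reached 70854 kb. The reference leaves the outermost stretches of the chromosomes unsequenced. On chromosome 17, for example, it covers bases 3000001 to 94887271 of 94987271. Repeats in those stretches could carry no listed peak, and where reads from them were placed was not tested. Within 100 kb of an end lay 3 members. Those were 0.099 kb from the end of chromosome 17 (48.8-fold, 51 reads, nearest to Mettl4), 0.224 kb from that of chromosome 16 (17.3-fold, 31 reads, nearest to A630089N07Rik) and 0.245 kb from that of chromosome 2 (37.1-fold, 70 reads). The next nearest was 1874 kb away, in an intron of Ppp1r9a (32.7-fold). Fold enrichments of the 3 peaks at the ends fell within the range of the 31 others.

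**Figure D5:**
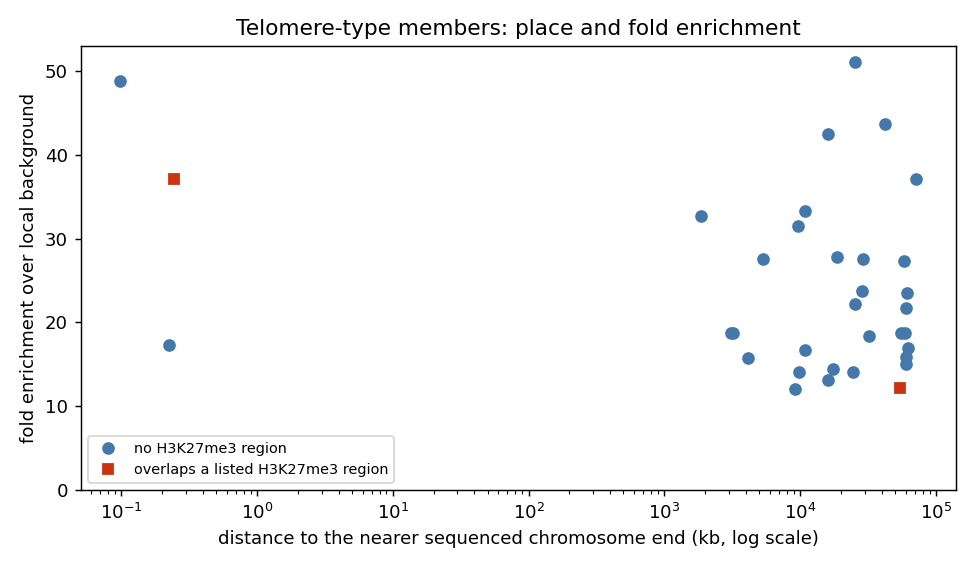
Fold enrichment (y axis) of the 34 telomere-type members against the distance to the nearer sequenced chromosome end (kb, log scale), with the 2 members that overlap an H3K27me3 region as red squares. Only 3 points lie under 1 kb, at 17.3-fold to 48.8-fold, and the others lie at 1874 kb or more over the whole range of folds.

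Reads and local background were both higher at telomere-type members than over all 564 members. The 34 telomere-type members had a median of 25 reads, against 17 over all members. The recovered local background exceeded 0.1 reads at 20 of these 34 (58.8%) against 158 of all 564 (28.0%). At the end of chromosome 2 the background was 0.913 reads. The part of this background in their fold enrichments was not tested.

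Telomere-type members included 2 close pairs. One pair was 8.384 and 8.781 kb from the start of Olfm1, with summits 397 bp apart and 51.0-fold and 22.2-fold enrichment. The other was in an intron of Wdr76, with summits 185 bp apart and 21.7-fold and 15.1-fold enrichment. Among all members 26 (4.61%) had another listed peak within 10 kb, against 131 of the 2773 distal peaks (4.72%). Further close pairs included an ACC and an ATC peak 226 bp apart in Aff3 (19-fold and 40.4-fold), ATC peaks 341 bp apart in Sos2 (20.7-fold and 25.3-fold), ATCC peaks 296 bp apart 133 kb from Cemip2 (16.9-fold and 16.0-fold) and ACT peaks 368 bp apart near Gm853 (17.8-fold and 14.1-fold).

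Both members that overlapped a listed H3K27me3 region of WT muscle were telomere-type. They were the peak at the end of chromosome 2, chr2:182012939-182013017, and a weak one at chr2:57629590-57629676, 368.3 kb from Galnt5 (12.2-fold, 12 reads). That is 2 of 564 members (0.355%, interval 0.0430 to 1.28), beside 19 of all 3087 listed GR peaks (0.615%). The lists come from different genotypes and antibodies, and a listed region at a repeat does not by itself show the mark there.

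Unlike the common units, AACAG contains one arm of the receptor's own element. The sequence AGAACA, the arm, was searched in the same 100 bp on both strands. It occurred in 22 of 564 members (3.90%, interval 2.46 to 5.85), against 81 of 3087 listed peaks (2.62%). All 6 AACAG members held it, in 9 to 15 copies, since the repeated unit spells it, and the unit was picked out after its values were seen. The strongest of them reads as follows.
Amy2a3 intron, unit AACAG, chr3:113315895-113315968: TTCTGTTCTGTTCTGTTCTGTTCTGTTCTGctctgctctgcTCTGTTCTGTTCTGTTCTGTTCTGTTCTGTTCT

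These 6 members had a median of 26.8-fold enrichment with a range of 14.2 to 38.5, inside the range of the other units. They lay in introns of Amy2a3 (38.5-fold, 40 reads), Galntl6 (36.6-fold, 38 reads), Pcsk1 (29.1-fold, 30 reads) and Amy2a5 (16.9-fold, 17 reads), and nearest to Slc16a7 (24.4-fold) and Tmem132c (14.2-fold). Amy2a3 and Amy2a5 are near-identical copies of the pancreatic amylase gene, so reads could be split between that pair of peaks, and no 31-base word of the Amy2a5 peak occurs once in the genome. Of the AACAG tracts of at least 20 bp, 14 of 286 carried a listed peak (4.90%, interval 2.70 to 8.08).

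The full element, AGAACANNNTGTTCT, was found in no member and in none of the 3087 listed peaks. A looser core, ACANNNTGT, occurred in 1 member, an ACGC one, and in 8 of all listed peaks (0.259%). The other members with AGAACA were 6 with ACAG and 10 of other units. These counts say only which letters lie within 100 bp around the summits.

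Of the members 196 (34.8%) lay inside a protein-coding gene, the same percentage as the 965 of 2773 distal listed peaks (34.8%). Nearly all of these were intronic, 193 in number. One lay in a coding exon of Mllt3, a super elongation complex gene, on an AGC repeat at chr4:87841286-87841349 (12.2-fold, 12 reads). Another 2 lay in untranslated regions, of Ufl1 on an AAC repeat (15.02-fold) and of Pura on an ACTC repeat (16.0-fold). By unit the count inside genes was 7 of 34 for AACCCT, 37 of 136 for ACAG, 13 of 29 for ACTC, 13 of 28 for ATC and 1 of 12 for ACACAG.

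Among 143 members inside 1 gene whose unit has unequal G and C, the G-richer strand was the coding strand in 81 (56.6%, interval 48.1 to 64.9). ATC had 12 of 13 on the coding strand, and 2 of these 12 were the peaks 341 bp apart in Sos2. Of the 618 ATC tracts of at least 20 bp in such genes over the genome 339 (54.9%) had that orientation. For ACC it was 12 of 19 members beside 57.8% of 2387 tracts. For ACT it was 10 of 18 beside 53.8% of 530, and for ACTC 7 of 13 beside 51.5% of 307.

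Few members lay at genes of the lists read for hormone response and contraction. Of 39 glucocorticoid-induced genes, none held a member and Klf9, a hormone-induced zinc finger repressor, was nearest to one. It was an ACAG peak at chr19:23031565-23031628, 109.6 kb from its start (20.3-fold, 22 reads). Of 42 contractile and calcium handling genes, none held a member and Dmd, the dystrophin gene, was nearest to an ACAG peak 694.2 kb away (16.0-fold, 16 reads). Over all 2773 distal peaks these lists' genes held 1 and 4 peaks and were nearest to 3 and 3 peaks.

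Chromosome X held 20 members and chromosome Y 4. Per tract of at least 20 bp the share with a listed peak was 0.144% on X (49 of 34085, interval 0.106 to 0.190), 0.0242% on Y (6 of 24801) and 0.263% on the autosomes (1509 of 572739, interval 0.250 to 0.277). The sex of the mice is not stated in the labels, so the copies of X and Y per cell are unknown.

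How uniquely reads could be placed differed by unit. The 31-base words of a member peak occurred at a median of 9 genome positions, against 10 over all listed peaks. By unit the median was 20 for ACAG, 3 for ACT and 3 for AACCCT. In 381 members (67.6%) at least 1 such word occurred once, close to the 2055 of all 3087 listed peaks (66.6%). Among the members this held for 64 of 136 ACAG ones and 29 of 34 telomere-type ones. The read length and the handling of reads with several matches are not given in the sources used here, so the part of this in the peaks was not tested.

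The peaks nearest to the rule's thresholds were the following. By tract cover, the ACAGAG peak at chr11:16133629-16133718, 124.1 kb from Vstm2a, was just inside with 50% (18.8-fold), and an ACACAG peak in Robo1 at chr16:72644271-72644396 was just outside with 49.2% (19.5-fold). By distance, an ATC peak in Ttc29 at chr8:78224022-78224080 was just inside with 5253 bp (16.6-fold), and an ACAG peak 4981 bp from Pigz at chr16:31928837-31928888 was just outside (13.6-fold).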

How the data were processed

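ChIP-seq peaks of 1 library each were read for GR in GR(i)skm-/- muscle and H3K27me3 in WT muscle. Per the submitters' processing notes, bases were called with bcl2fastq 2.17.1.14, reads were aligned with Bowtie 1.0.0 to mm10, and peaks were called with MACS2, with no version given. The control is not given in the sources used here. The deposited files give a score, a ratio (fold enrichment over local background), a -log10 p and a -log10 q per peak, all the authors' values. The deposited list starts at a -log10 q of 20.01 and holds 23.9% of the numbered peaks.

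Reads at the summit were recovered from fold and -log10 p under MACS2's Poisson model (all 3087 within 0.001). Tracts were found in each peak's sequence of GRCm38, which has the coordinates of mm10. The unit with most bases was taken as dominant, the shorter on a tie. Start sites were those of protein-coding transcripts in GENCODE vM21. No test was made, because each group is 1 library. Regions named were the 10 of highest fold, the strongest 3 of each unit with at least 10 members, those at the thresholds and those at listed genes; others were chosen after their values were seen. The members and gene lists were chosen with earlier results of these data known. Intervals are exact at 95%, and a count of 0 is given with the limit of 3 counts. Code was tested on simulated data. The scripts ran in Python 3.11.15 with numba 0.67.0, scipy 1.17.1, pandas 2.3.3, numpy 2.4.6 and matplotlib 3.10.9. Alternatives covered other tract, distance, strength and overlap thresholds, with values below. Some named items and sequences are not reported here.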

Additional observations from a re-analysis of the deposited data

How the results depend on the processing

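No paired analysis was possible because each group has 1 library, and the same holds for leaving out a replicate. Members fell from 564 to 339 when tracts had to cover 80% of the peak and to 311 at a -log10 q of at least 30, and stayed within 1.5 times under the 4 other definitions. Member counts of single units moved by over 1.5 times for 12 of 13 units at a -log10 q of at least 30, for 6 of 13 at 80% cover and, with tracts of at least 12 bp, for ATC alone (17). Family medians of fold enrichment moved by less than 1 SD of the members' folds under these first 2 alternatives, except for runs of C, which had no member left. The telomere-type median still went from 20.3 to 27.4 at 80% cover and to 27.3 at a -log10 q of at least 30. Medians of the other families with members left were 15.7 to 16.9 at 80% cover and 20.3 to 22.3 at that q. At a -log10 q of at least 30 the share of tracts with a peak was 0.140% over all units, ACAG 1.06%, ACC 0.813%, ACT 2.89%, ACAGAG 1.45%, AACCCT 14.3%, ACTC 4.22%, ATC 0.850%, AGAGG 0.495%, ACGC 3.24%, ACACAG 1.48%, ACACC 3.36% and ACACGC 1.81%, since fewer peaks were counted. With tracts of at least 30 bp it was 2.15% for ACAG, 1.45% for ACC, 2.19% for ACAGAG, 10.5% for ACTC, 15% for ACTG and 11.2% for ACACC. With an overlap of at least 10 bp it was 0.222% over all units and 2.34% for ACAGAG. With tracts within 10 bp counted once, an alternative added after the data were seen, it was 14.3% for AACCCT, 0.827% for AGAGG and 4.97% for ACACC. The count of members overlapping H3K27me3 was 1 at a -log10 q of at least 30. With all annotated genes in place of protein-coding ones 41.8% of members lay inside a gene. The depth of the libraries is unknown, and 199 members (35.3%) rest on 12 to 15 reads, against 39.2% of all listed peaks.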
